A study of Mus musculus with 11 samples.

Results

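The genes described here are markers of the hormone-making and supporting cells of the ovary: the transcription factors Foxl2 and Nr5a1, the steroid synthesis genes Star, Cyp11a1, Hsd3b1, Cyp17a1 and Cyp19a1, the receptor gene Fshr, and the hormone genes Inha and Amh. They were chosen by name as genes of granulosa cells, theca cells and steroid synthesis, and their levels were read in 11 mouse cell lines to ask whether the lines from ovaries carry such a program. Of the 10 genes, 8 were listed in the count table, which holds 28284 genes in all. Cyp19a1, the aromatase gene, and Fshr, the follicle-stimulating hormone receptor gene, were not listed in the table used here and were not analysed.

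In the follicle, granulosa cells surround the oocyte, and FOXL2 keeps their identity, while NR5A1 (steroidogenic factor 1) switches on steroid genes in granulosa, theca, luteal and adrenal cells. Steroid synthesis starts when STAR moves cholesterol into the mitochondrion, where CYP11A1 cuts its side chain to make pregnenolone. HSD3B1 then makes progesterone, CYP17A1 makes androgens in theca cells, and CYP19A1 turns androgens into estrogens in granulosa cells. Granulosa cells also secrete inhibin, whose alpha subunit is the product of Inha, and anti-Müllerian hormone, the product of Amh.

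All lines carried the genotype Ovgp1-Trp53-R270H-Myc, a knock-in at the Trp53 locus in which the oviduct promoter Ovgp1 drives mutant p53 and Myc. Tissue was minced after dissection of female mice, whose ages at sampling were not given in the sources used here, and each line was grown without treatment in RPMI 1640 until uniform and dividing. The labels call all of the lines ovarian cancer. The lines came from 7 mice: 7 lines from ovaries (ROV, right ovary, and LOV, left ovary, taken with the oviduct), 2 from uteri and 2 from visible tumors, splenic in mouse F326 and peritoneal in mouse F361. Mice F364, F326, F319 and F318 each gave 2 lines. Each line was sequenced as 1 library of polyadenylated RNA, so no line has a technical replicate, there is no wild-type or normal ovary library, and the study's methods record that the F361 peritoneal tumor line did not express the mutated p53 codon.

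Library totals ran from 13580525 to 27044598 counts (median 17517765), and levels are given as CPM, the count scaled to a common library total. A gene with 0 counts could still have a level of up to 0.111 to 0.221 CPM, the value of 3 counts, depending on the library. Between 74.0% and 82.2% of the counts from 1 to 10 were even numbers, so low counts came mostly in steps of 2. All intervals cover counting error only and take counts as independent, which makes them too narrow where a fragment was counted for both of its mates. The libraries fell into 2 sets. In libraries 1 to 7 (5 ovary lines and both tumor lines) 24 skeletal muscle fiber genes took 7.33% to 14.1% of all counts and 4 Y-linked genes summed to 128 to 174 CPM. In libraries 8 to 11 (both uterus lines with F339 ROV and F318 LOV) the lists took 0.158% to 1.24% and 1.75 to 19.2 CPM. Y-linked RNA goes against the label of lines from females. Both uterus lines are in 1 set and both tumor lines in the other, so comparisons are given over all lines and within each set.

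Nr5a1 was above the floor of 3 counts in 5 of the 7 ovary lines, 4 of them at 1 CPM or more, and at or below 2 counts in every line from another site. It stood at 38.4 CPM in F326 ROV, 18.6 in F364 ROV, 14.4 in F364 LOV, 4.11 in F318 ROV and 0.358 (8 counts) in F319 ROV. There were 0 counts in F339 ROV, both tumor lines and F319 uterus, and 2 counts each in F318 LOV and F333 uterus. The 95% Wilson intervals of the top 4 lines did not overlap, but on halved counts those of F364 ROV and F364 LOV did (15.8 to 21.8 and 12 to 17.3 CPM), so the order of these lines is not settled. The mean over the 5 ovary lines of libraries 1 to 7 was 15.2 ± 14.9 CPM (SD, n = 5). This is 148-fold the value of 3 counts over both tumor libraries, taken as the floor of these lines at 0. In bulk samples, fewer cells with the transcript and less transcript per cell cannot be told apart. Nr5a1 lies on chromosome 2 (chr2:38692656-38714542, minus strand, GRCm38) and overlaps the antisense gene Nr5a1os, which had counts in 1 line alone, F326 splenic tumor (0.190 CPM).

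Foxl2 was counted in the same 5 ovary lines. It reached 7.54 CPM in F326 ROV, 7.23 in F364 ROV and 2.74 in F318 ROV, and had 0.716 in F319 ROV and 0.633 (10 counts) in F364 LOV. There were 4 counts (0.148 CPM) in F319 uterus and 0 counts in F339 ROV, F318 LOV, F333 uterus and both tumor lines. The mean over the 5 ovary lines of libraries 1 to 7 was 3.77 ± 3.41 CPM (SD, n = 5), 36.9-fold the same floor of the tumor lines. The intervals of F326 ROV and F364 ROV overlapped, as did those of F319 ROV and F364 LOV, so the order within each pair is not settled by the counts. F364 LOV is the exception among the lines rich in Nr5a1, with Nr5a1 near that of F364 ROV and far less Foxl2. The gene (chr9:98955288-98958543, plus strand) overlaps Foxl2os on the opposite strand, which had 3.60 CPM in F318 ROV, 3.14 in F326 ROV and 2.54 in F364 ROV. The library kit marks strand, but the strand setting of the counting was not given in the sources used here, so reads of this antisense pair may not be fully separated.

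**Figure D1:**
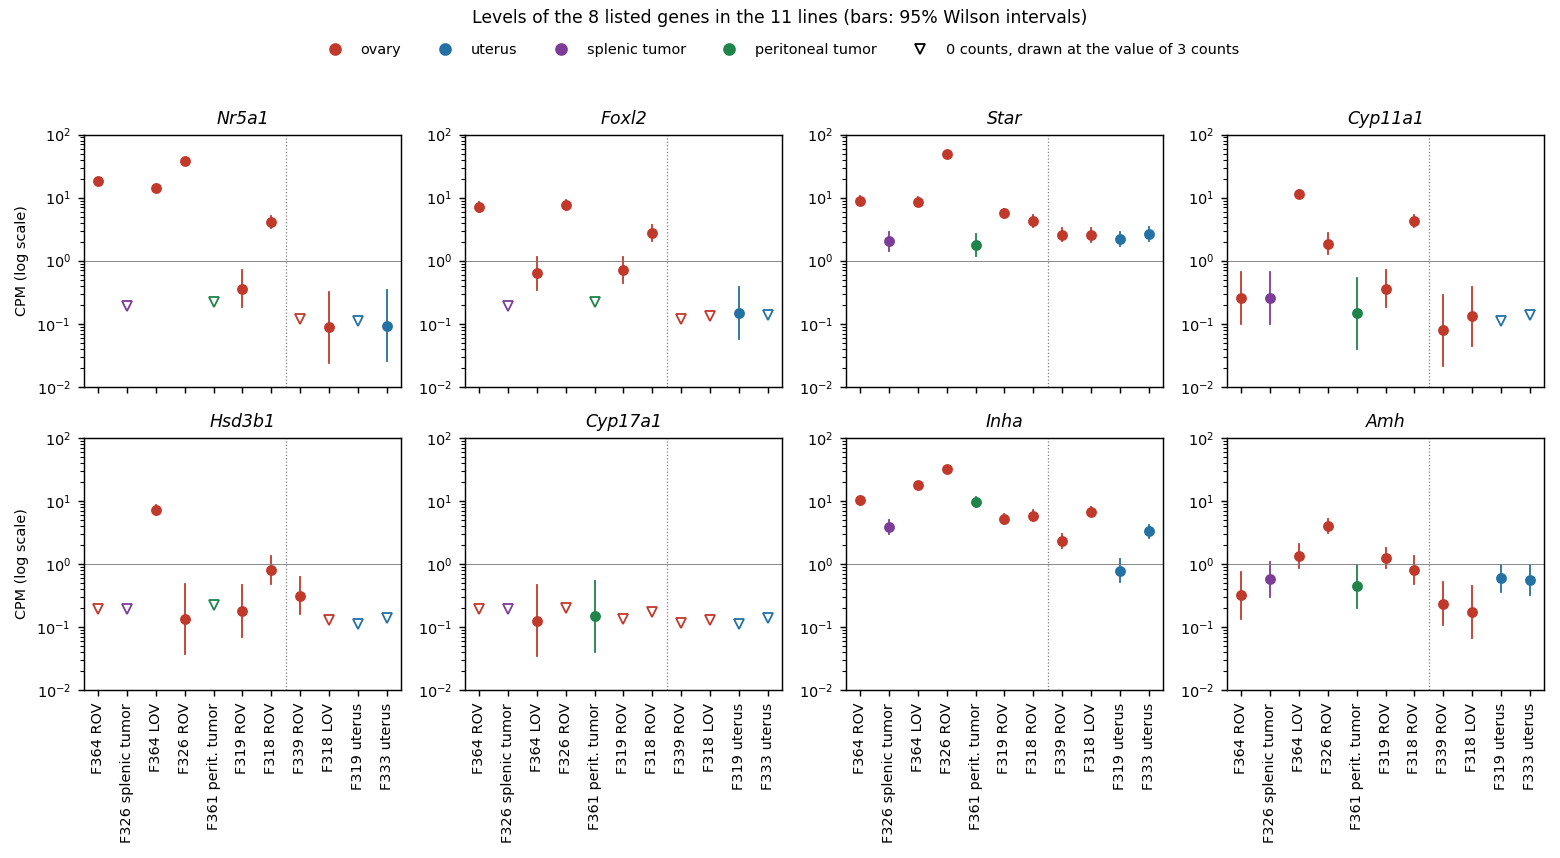
CPM (log axis) of the 8 listed genes in the 11 lines, in library order, with 95% Wilson intervals as bars, colors for the site of origin and open triangles for 0 counts drawn at the value of 3 counts; the dotted line parts libraries 1 to 7 from 8 to 11 and the thin horizontal line marks 1 CPM. Nr5a1 and Foxl2 stand above 1 CPM in ovary lines of libraries 1 to 7 alone, Star and Inha are present in all 11 lines, and Cyp11a1 and Hsd3b1 peak in F364 LOV.

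Star was counted in every line, over a low level shared by all. F326 ROV had 48.7 CPM, followed by F364 ROV with 8.88, F364 LOV with 8.61, F319 ROV with 5.64 and F318 ROV with 4.22. The other 6 lines lay between 1.77 (F361 peritoneal tumor) and 2.65 (F333 uterus), F339 ROV and F318 LOV among them, and their intervals overlapped from each line to the next. Among the 5 ovary lines of libraries 1 to 7 the mean was 15.2 ± 18.8 CPM (SD, n = 5), against 1.90 ± 0.182 (SD, n = 2) in the tumor lines. Star (chr8:25806555-25815982, plus strand) ends 13 bp from the 3′ end of Ash2l, a gene on the opposite strand with 40.1 to 132 CPM. Ash2l did not follow Star, at 48.9 CPM in F326 ROV and 132 in F318 LOV, and its part in the low shared level was not tested.

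The enzymes downstream of Star followed another order of lines. Cyp11a1 (chr9:58006411-58027023, plus strand) reached 11.5 CPM in F364 LOV, 4.28 in F318 ROV and 1.87 in F326 ROV. Their intervals did not overlap, but on halved counts those of F318 ROV and F326 ROV did. The remaining lines had 0.358 CPM (8 counts) or less, including F364 ROV with 0.254 (4 counts), and both uterus lines had 0. Hsd3b1 (chr3:98852194-98859794, minus strand) reached 1 CPM in 1 line, F364 LOV, with 7.09 CPM (112 counts). It had 14 counts in F318 ROV, 8 in F339 ROV, 4 in F319 ROV and 2 in F326 ROV, and 0 in the other 6 lines. So the line with the most Cyp11a1 was also the one with the most Hsd3b1, while the line with the most Nr5a1 and Star, F326 ROV, had 2 counts of Hsd3b1. Hsd3b1 has near-identical copies next to it, across which the counting could split or drop reads, so its level is uncertain. Its listed copies Hsd3b2, Hsd3b3, Hsd3b5 and Hsd3b6 were at 0.442 CPM or less in every line. The lincRNA Gm17322, on the same strand as Cyp11a1 and overlapping it, had 0.698 CPM in F364 ROV and 0.401 in F326 ROV.

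Cyp17a1 (chr19:46667165-46673172, minus strand), the androgen-making enzyme that defines theca cells, was not detected above the floor. It had 2 counts in F364 LOV (0.127 CPM), 2 in F361 peritoneal tumor (0.147 CPM) and 0 in the other 9 lines. Lhcgr, the luteinizing hormone receptor gene through which theca cells are driven, was likewise at 0.127 CPM or less in every line. Another theca gene did have counts: Insl3, an insulin-like hormone gene of theca and Leydig cells, stood at 2.73 CPM (61 counts) in F319 ROV, 2.68 in F318 ROV and 1.71 in F364 LOV. It had 0.601 to 1.14 CPM in the other 4 libraries of 1 to 7, both tumor lines included, 5 counts in F339 ROV, 3 in F333 uterus and 0 in F318 LOV and F319 uterus.

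Promoters of Cyp11a1, Hsd3b1 and Inha are shown next, because steroid enzyme and inhibin genes are known targets of NR5A1. RefSeq promoters (GRCm38.p6, from 250 bases before to 50 after the start) were given for 6 of the 10 genes, 9 promoters in all, and those of Cyp11a1 (its downstream start, chr9:58014702-58015001, plus strand), Hsd3b1 (chr3:98859745-98860044, minus strand) and Inha (chr1:75507359-75507658, plus strand) are printed 5′ to 3′. The Cyp11a1 and Inha windows printed are set on RefSeq starts and lie inside the genes as GENCODE annotates them. The upstream Cyp11a1 window lies before that gene's GENCODE start, so neither Cyp11a1 window is at that start. Capitals mark AGGTCA, the half-site letters shared by many nuclear receptors.
Cyp11a1: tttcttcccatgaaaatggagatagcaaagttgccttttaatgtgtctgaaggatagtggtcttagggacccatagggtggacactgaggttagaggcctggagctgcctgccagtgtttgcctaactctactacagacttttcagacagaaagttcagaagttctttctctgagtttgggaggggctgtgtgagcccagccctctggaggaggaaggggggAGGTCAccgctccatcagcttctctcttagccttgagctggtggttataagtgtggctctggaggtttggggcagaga
Hsd3b1: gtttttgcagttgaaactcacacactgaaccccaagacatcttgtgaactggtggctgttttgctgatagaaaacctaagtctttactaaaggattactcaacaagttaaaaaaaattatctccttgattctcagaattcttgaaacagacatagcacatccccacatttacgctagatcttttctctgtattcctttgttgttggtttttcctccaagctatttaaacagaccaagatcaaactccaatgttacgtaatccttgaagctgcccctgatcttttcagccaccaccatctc
Inha: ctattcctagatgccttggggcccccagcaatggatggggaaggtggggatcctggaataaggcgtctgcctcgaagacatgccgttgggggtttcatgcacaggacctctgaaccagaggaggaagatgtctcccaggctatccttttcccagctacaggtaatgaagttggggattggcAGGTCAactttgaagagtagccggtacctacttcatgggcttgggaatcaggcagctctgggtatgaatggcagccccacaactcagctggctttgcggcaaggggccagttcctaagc
The longer motif AAGGTCA, part of the site that NR5A1 binds, was in 0 of the 9 promoters on either strand, and in 1550 of 32851 promoters of all genes (4.72%). AGGTCA, which is contained in it and was added after these sequences were seen, was in 3 of the 9 promoters and in 16.3% of all promoters. It began at position -28 from the start in the Cyp11a1 promoter shown and at -69 in the Inha promoter, on the gene's strand, and the upstream promoter of Cyp11a1 (chr9:57997774-57998073, plus strand, not shown), the Hsd3b1 promoter shown and that of Foxl2 held no match. A match is a description of letters, and its absence says only that these letters are not in this window.

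Inha, coding for the inhibin alpha subunit, was present in every line. It was highest in F326 ROV with 32.1 CPM, F364 LOV with 17.8 and F364 ROV with 10.1. F361 peritoneal tumor followed with 9.57, then F318 LOV with 6.77, F318 ROV with 5.82, F319 ROV with 5.19, F326 splenic tumor with 3.86, F333 uterus with 3.30, F339 ROV with 2.27 and F319 uterus with 0.776. Ovary and other lines overlapped, since the peritoneal tumor line lay above 4 of the 7 ovary lines. Per kilobase of exon Inha had the highest level of the 8 genes, 21.8 CPM per kb in F326 ROV against 11.9 for Star and 9.05 for Nr5a1 in the same line. Inha (chr1:75507077-75510366, plus strand) lies 624 bp from Obsl1, which had 17.7 to 271 CPM.

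Amh stayed low throughout. It had 3.94 CPM (59 counts) in F326 ROV, 1.33 in F364 LOV and 1.25 in F319 ROV, and 0.175 to 0.799 in the other 8 lines, with no line at 0. Amh (chr10:80805243-80807648, plus strand) lies just downstream of Sf3a2 on the same strand (37.0 to 122 CPM) and 847 bp from Jsrp1, a muscle gene with 446 to 1146 CPM in libraries 1 to 7 and 4.06 to 36.9 in libraries 8 to 11. Whether reads from these neighbors enter the Amh count was not tested.

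Counted by line, 7 of the 8 listed genes reached 1 CPM in at least 1 line, Cyp17a1 being the exception. F364 LOV and F326 ROV each had 6 genes at 1 CPM or more, F318 ROV 5, F364 ROV 4 and F319 ROV 3. F326 splenic tumor, F361 peritoneal tumor, F339 ROV, F318 LOV and F333 uterus each had 2, which were Star and Inha, and F319 uterus had Star alone. F326 ROV held the highest level of 5 genes (Nr5a1, Foxl2, Star, Inha and Amh) and F364 LOV that of 2 (Cyp11a1 and Hsd3b1). Set against the 27092 genes with an annotated exon length, by the median over lines of CPM per kilobase of exon, Inha stood at percentile 70.9, Star at 51.9, Amh at 47, Cyp11a1 at 34.4, Foxl2 at 33.5 and Nr5a1 at 30.5. Hsd3b1 and Cyp17a1 had a median of 0 and stood at percentile 0. By the highest line of each gene, Inha stood at percentile 82.2, Star at 73.2, Nr5a1 at 69.1 and Hsd3b1 at 57.0. Cyp11a1 stood at 51.8, Amh at 51.6, Foxl2 at 51.4 and Cyp17a1 at 6.97.

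Whether these genes separate ovary lines from the lines of other sites was asked first over all 11 lines. No gene of the 15954 tested was called by edgeR's quasi-likelihood test at an adjusted p under 0.05 (0.0% called, and 273 genes or 1.71% at an unadjusted p under 0.05), and DESeq2 called 22 (0.138%, 508 unadjusted). Of the genes of interest, 5 passed the filter on low counts, Nr5a1 and Foxl2 through the ovary lines alone, so the direction of these was fixed by the filter. The log2 difference was 8.62 ± 2.47 (SE) for Nr5a1, 5.99 ± 2.04 for Foxl2, 2.53 ± 0.94 for Star, 1.33 ± 0.88 for Inha and 1.16 ± 0.87 for Amh, beside a median of -0.08 over all genes tested. Unadjusted p-values from edgeR were 0.0047 for Nr5a1, 0.0128 for Foxl2 and 0.0202 for Star, and each of the 5 had an adjusted p of 1.0. By DESeq2, Nr5a1 was among the genes called (adjusted p = 0.00527), and Foxl2 (adjusted p = 0.23) and Star (adjusted p = 0.437) were not. An exact two-sided permutation test of mean log2(CPM + 1), run over all 330 splits of the lines for each of the 8 listed genes, gave p = 0.0545 for Star, 0.0758 for Nr5a1, 0.0939 for Foxl2 and 0.136 for both Cyp11a1 and Inha, where the smallest p the design allows is 0.00303. The same exact permutation test gave 0.258 for Hsd3b1, 0.491 for Amh and 0.745 for Cyp17a1, whose mean was lower in the ovary lines. Cyp11a1, Hsd3b1 and Cyp17a1 did not pass the filter. Without the filter, edgeR gave Cyp11a1 a log2 difference of 4.76 ± 1.76 (adjusted p = 0.836) and Hsd3b1 one of 7.76 ± 2.65 (adjusted p = 0.836). A fitted difference against lines at 0 depends on the prior count and is no bound.

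No gene of interest was higher in all 7 ovary lines than in all 4 other lines, against 0.176% of the genes at 1 CPM or more in a line. Within libraries 1 to 7, Foxl2, Nr5a1, Star and Cyp11a1 were higher in each of the 5 ovary lines than in both tumor lines, which 12.6% of 16256 genes were too. These genes were also higher in these 5 ovary lines than in all 6 remaining lines, which held for 0.524% of 16999 genes. In both splits 7 genes of interest were tested. The second split puts F339 ROV and F318 LOV, with at most 3 counts of Foxl2, Nr5a1 and Cyp11a1, beside the lines of other sites. Its result depends on that placement, so it is a description, for Star too. Foxl2, Nr5a1 and Cyp11a1 reached 1 CPM in ovary lines alone, so they were admitted by the group in which they are high, and their separation is a description. For Cyp11a1 the margin is nil by counts, since F364 ROV and F326 splenic tumor had 4 counts each. Against the 6 remaining lines the intervals also overlapped at the boundary for Star, Nr5a1 and Foxl2. The pairs were F318 ROV with F333 uterus for Star and F319 ROV with F333 uterus for Nr5a1. For Foxl2 they were F364 LOV and F319 uterus. Fitted within libraries 1 to 7, edgeR called 0 of 16299 genes (0.0%, 1636 unadjusted), and 7 genes of interest were tested, of which Foxl2, Nr5a1, Cyp11a1 and Hsd3b1 passed the filter through ovary lines alone. The log2 difference there was 11.03 ± 3.08 for Nr5a1, 8.99 ± 2.31 for Foxl2, 2.91 ± 1.16 for Star and 4.04 ± 1.76 for Cyp11a1, with adjusted p-values of 0.396, 0.348, 0.477 and 0.494. With library set as a term over all 11 lines, the difference fell to 6.58 ± 2.47 for Nr5a1, 3.28 ± 2.31 for Foxl2, 1.61 ± 0.95 for Star and 0.19 ± 0.91 for Amh. With F339 ROV and F318 LOV left out, edgeR again called 0 genes (780 unadjusted), and Nr5a1 had a log2 difference of 9.07 ± 1.65. These lines were left out after the data were seen and had 0 and 2 counts of Nr5a1, so the larger difference is no support for it. Inside libraries 1 to 7 the muscle genes took 11.1% and 14.1% of counts in the tumor lines and 7.33% to 13.7% in the ovary lines, and their part in these differences was not tested.

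**Figure D2:**
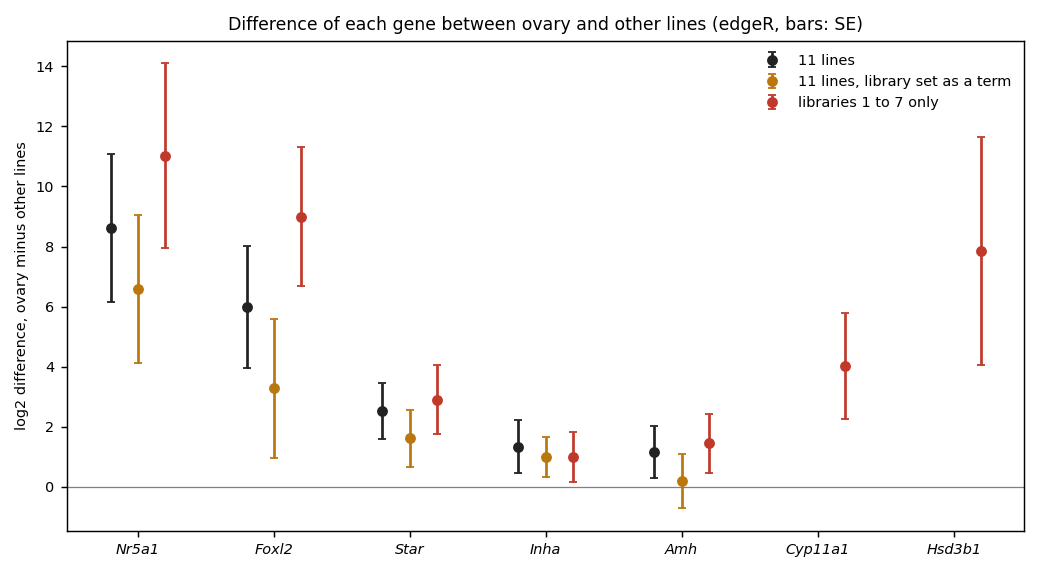
Fitted log2 difference, ovary minus other lines, of each gene of interest by edgeR's quasi-likelihood test, with bars for the standard error; black is the fit over 11 lines, ochre the same with library set as a term, red the fit within libraries 1 to 7, in which alone Cyp11a1 and Hsd3b1 passed the filter. All points lie above 0, from 0.19 for Amh with library set as a term to 11.03 for Nr5a1 within libraries 1 to 7, and none had an adjusted p under 0.05.

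Against the 2 uterus lines alone, 7 genes of interest were tested among 17446 genes, whose median log2 difference was 0.05. Foxl2, Nr5a1, Cyp11a1 and Hsd3b1 had at most 4 counts in either uterus line and passed the filter through ovary lines alone, so their direction was fixed by it. The log2 difference was 8.98 ± 3.37 for Cyp11a1, 8.10 ± 3.49 for Nr5a1, 5.38 ± 2.78 for Foxl2 and 2.74 ± 1.22 for Inha. edgeR called no gene (0.0%, with 2308 or 13.2% at an unadjusted p under 0.05), with an adjusted p of 0.359 for Cyp11a1, Nr5a1 and Inha and 0.36 for Foxl2. DESeq2 called 1297 genes (7.43%), Cyp11a1 (adjusted p = 0.00737) and Nr5a1 (adjusted p = 0.0118) among them. This split runs along the library sets, since both uterus lines are in libraries 8 to 11 and 5 of the 7 ovary lines are not. Within libraries 8 to 11 the ovary lines had 0 counts of Foxl2 like F333 uterus, at most 2 counts of Nr5a1 and at most 3 of Cyp11a1. There Star differed by 0.07 ± 0.58 and Inha by 1.09 ± 1.0 on the log2 scale, and Amh was lower in the ovary lines by edgeR (-1.47 ± 0.79, adjusted p = 1.0). With library set as a term, Foxl2 turned to -3.65 ± 2.42, Nr5a1 to -0.09 ± 2.90 and Amh to -1.52 ± 1.09. Only libraries 8 to 11 hold both sites, and no line there had more than 4 counts of Foxl2 or Nr5a1. The directions of these genes with that term thus rest on counts near the floor. There is no uterus line in libraries 1 to 7, so site and library set cannot be told apart for the ovary lines that carry Foxl2 and Nr5a1. DESeq2 also called 12 genes of the muscle list and the Y-linked Ddx3y and Kdm5d higher in ovary than in uterus lines, whose part in these differences was not tested.

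Lines of the same mouse could be compared in 4 mice. The left and right ovary lines of mouse F364 are in the same library set. Cyp11a1 was 45.4-fold higher in F364 LOV than in F364 ROV (95% exact counting interval 17.4 to 168). Hsd3b1 was 37.3-fold higher there, taking 3 counts for the library at 0 as in the pairs that follow, with an exact lower limit of 29.8. Foxl2 went the other way, 11.4-fold higher in F364 ROV (5.99 to 24.5). Nr5a1 (1.29-fold, 1.08 to 1.55) and Star (1.03-fold, 0.809 to 1.32) were close in the 2 lines. Cyp11a1, Hsd3b1, Foxl2 and Amh differed 4-fold or more between these lines, as did 3.73% of all genes at 1 CPM or more in either. A gene enters such a comparison through the line in which it is higher, so these shares are a description. With 1 library per line these are comparisons of libraries, with no test.

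In mouse F326, whose lines were also in the same set, the genes of interest at 1 CPM or more in either line were higher in the ovary line than in the splenic tumor line, and 12% of all genes differed 4-fold or more in either direction. Foxl2, Nr5a1, Cyp11a1 and Amh reached 1 CPM in the ovary line alone. Nr5a1 and Foxl2 had 0 counts in the tumor line. On the floor of 3 counts their ratios were 202 (exact lower limit 164) and 39.7 (exact lower limit 31.8). The ratios were 24.1 (16.9 to 35.5) for Star, 8.32 (6.36 to 11) for Inha, 7.39 (2.58 to 29.0) for Cyp11a1 and 6.92 (3.41 to 15.9) for Amh. The other pairs cross the library sets. In mouse F318, Foxl2, Nr5a1 and Cyp11a1 were 4-fold or more higher in the right than in the left ovary line, as 19.2% of all genes differed in either direction. Foxl2 was 20.9-fold higher on that floor (exact lower limit 16.4). Nr5a1 was 47.1-fold higher (12.6 to 396, on 2 counts in F318 LOV) and Cyp11a1 32.7-fold (10.8 to 162, on 3 counts), while Inha was at 5.82 and 6.77 CPM. In mouse F319, Inha was 6.69-fold (4.18 to 11.2) higher in the ovary line than in the uterus line, and 26.9% of all genes differed 4-fold or more.

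**Figure D3:**
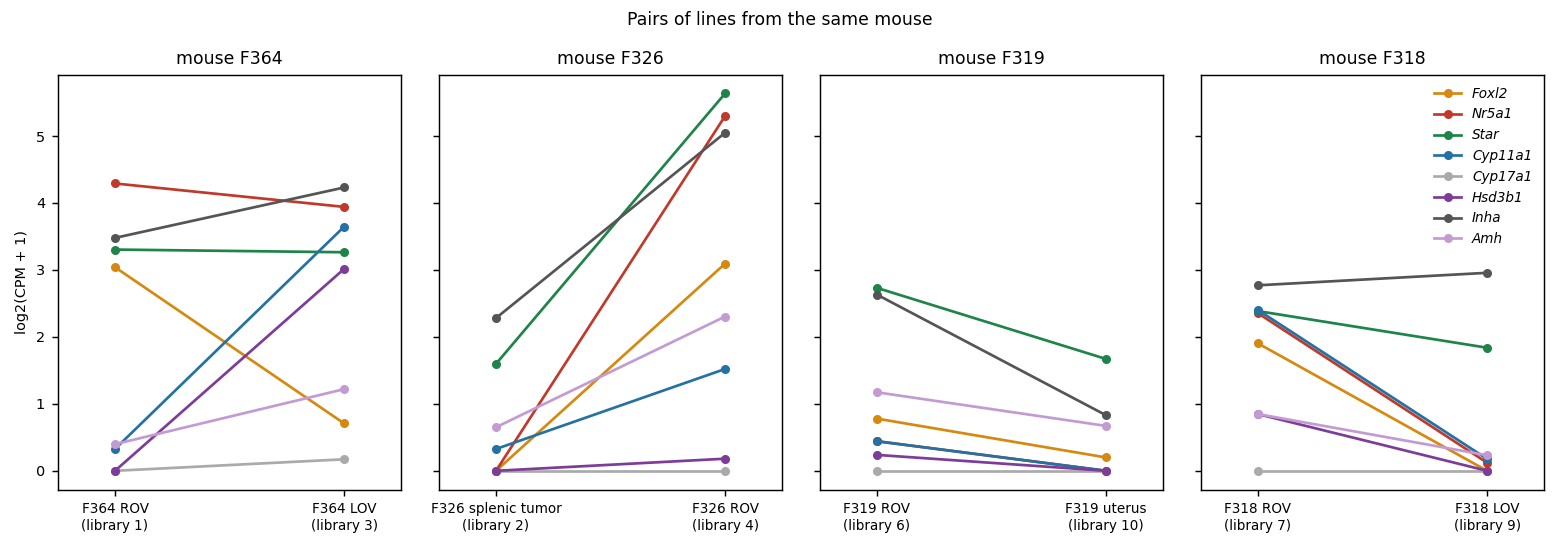
log2(CPM + 1) of the 8 genes in the 4 pairs of lines that came from the same mouse, with a line joining each gene's values and the library number under each line's name. In mouse F364 Cyp11a1 and Hsd3b1 are higher in the left ovary line and Foxl2 in the right, and in mouse F326 Nr5a1, Foxl2, Star, Inha, Cyp11a1 and Amh are all higher in the ovary line than in the splenic tumor line.

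Among wider granulosa genes (15 on the list, 13 in the table), 12 reached 1 CPM in some line and 5 in every line, and edgeR called none in either comparison. The highest by median CPM, which here and in the other lists is not scaled to gene length, were Inhba, an activin subunit gene, Gja1, a gap junction gene, and Kitl, the KIT ligand gene. Gja1 peaked in F319 uterus at 310 CPM, and Inhba was lower in libraries 1 to 7 (1.74 to 71.3 CPM) than in 8 to 11 (87.6 to 187 CPM). Amhr2, the receptor gene for anti-Müllerian hormone, ran from 3.54 to 45.5 CPM in libraries 1 to 7, tumor lines included (6.33 and 34.6), and 0.0873 to 0.650 in libraries 8 to 11. It was called by DESeq2 between ovary and uterus lines. Gata4, a partner of NR5A1 at gonadal genes, had 89.4, 72.9 and 39.5 CPM in F326 ROV, F364 ROV and F364 LOV and 0 in both tumor lines, but also 52.1 in F339 ROV and 29.7 in F319 uterus, where Nr5a1 had 0 counts. Esr2 and Nr5a2, both typical of granulosa cells, were at 0.295 CPM or less and at 1.77 or less.

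The list of gonadal transcription factors (15 genes, 12 at 1 CPM in some line, 5 in every line, Cited2, Nr2f2 and Emx2 highest) held no edgeR call. DESeq2 called Nr5a1 and Wt1 higher in the ovary lines than in the other lines, where each had at most 2 counts and so passed the filter through ovary lines alone, and between ovary and uterus lines also Cited2, lower in the ovary lines. Wt1, a factor of gonadal and mesothelial cells, stood at 72.7 CPM in F319 ROV, 67.2 in F326 ROV and 65.6 in F364 ROV, and at 0 to 5.85 elsewhere. F319 ROV, with traces of Nr5a1 and Foxl2, had the highest values of the mesothelial genes Msln (130 CPM), Upk3b (246) and Lrrn4 (81.3) and of the keratins Krt8 (52.7) and Krt18 (67.9). All 8 genes of the mesothelial list reached 1 CPM in some line and none in every line, with Wt1, Krt19 and Krt18 highest by median. Of 9 genes of Sertoli cells, the testis counterpart of granulosa cells, 7 were in the table and 5 reached 1 CPM in some line, Sox9, Inha and Dhh being highest by median. Dhh, a signal of Sertoli and granulosa cells, peaked at 33.7 CPM in F326 ROV. Sox9 had 82.7 CPM in F326 ROV, 65.7 in F339 ROV, 51.0 in F319 uterus and 39.8 in F364 ROV. It had 2.46 to 17.1 CPM elsewhere. Cldn11 had 3.87 CPM (58 counts) in F326 ROV and 0.269 or less elsewhere. Dmrt1, a testis gene, and Gata1 were at 0.134 and 0.127 or less. Of the oviduct and Müllerian list 9 of 10 genes reached 1 CPM in some line and 1 in every line, Emx2, Ovgp1 and Cdh1 being highest by median. Pax8, an oviduct epithelial marker, was at 3.04 CPM or less and Ovgp1, whose promoter drives the transgene, at 0.829 to 6.52. Krt7, an epithelial keratin, peaked at 40.5 CPM in F333 uterus.

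The theca and interstitial list (11 genes, 8 at 1 CPM in some line, 4 in every line) and the luteal list (8 genes, 6 in some line, 2 in every line) held no edgeR call, and both contain Star, Cyp11a1 and Hsd3b1. The highest by median beside Star were Nr2f2 and Ptch1 in the former and Scarb1 and Ptgfr in the latter. Nr2f2, a stromal receptor gene, had 13.0 to 69.3 CPM in libraries 1 to 7 and 132 to 175 in 8 to 11. All 16 genes of cholesterol supply and electron transfer to steroid enzymes reached 1 CPM in every line, led by Por, Npc2 and Tspo, so their presence did not part the lines. Of 16 other steroid enzymes, 11 reached 1 CPM in some line, led by Cyp1b1, Hsd17b4 and Hsd17b10. Hsd17b3, which makes testosterone, was counted in F326 ROV alone (2.40 CPM). Of the adrenal list 2 of 6 genes reached 1 CPM in some line, Mrap and Cyp11b1 alone having a median above 0. Mrap, an accessory protein gene of the adrenal hormone receptor, had 9.87 CPM in F364 LOV and 4.19 in F364 ROV. Cyp11b1, an enzyme of corticosteroid synthesis, was highest elsewhere, with 4.73 CPM in F333 uterus and 3.93 in F318 LOV against 0.633 in F364 LOV and 0 in F364 ROV. Of 21 genes of gonadotropin, activin and anti-Müllerian hormone signalling, 19 reached 1 CPM in some line and 13 in every line, with Gnas, Smad3 and Acvr1b highest, and Fstl3 peaking at 85.1 CPM in F333 uterus. Between ovary and uterus lines, where DESeq2 called 7.43% of all genes, it called 4 of the 19 signalling genes tested higher in the ovary lines (Amhr2, Acvr1b, Acvr2b and Smad3), 1 of 16 of cholesterol supply (Lipe), 2 of 10 other steroid enzymes (Hsd17b10 and Hsd11b1) and 1 of 2 adrenal genes (Mrap, which had 2 and 0 counts in the uterus lines and passed the filter through ovary lines alone). Several of these ran along the library sets: Hsd11b1 had 6.72 to 18.2 CPM in libraries 1 to 7, tumor lines included, and 1.96 and 1.48 in the ovary lines of libraries 8 to 11 beside 0.813 and 2.09 in the uterus lines. The median log2 difference between ovary and other lines was 1.24 over 10 granulosa genes tested (6 higher), 1.03 over 6 theca genes (4 higher), 1.33 over 4 Sertoli genes and 4.93 over 6 mesothelial genes. It was -0.13 over 16 genes of cholesterol supply (7 higher), -0.16 over 9 other steroid enzymes (3 higher) and 0.09 over 18 signalling genes (12 higher), beside -0.08 over all genes tested. The granulosa, theca and Sertoli lists hold some of the genes of interest, and genes such as Foxl2, Nr5a1 and Wt1 were admitted through ovary lines alone, so these medians are a description. The summed level of the granulosa list was 159 to 281 CPM in the ovary lines of libraries 1 to 7 and 70.8 and 104 in the tumor lines of that set. In libraries 8 to 11 it was 345 and 379 in the ovary lines and 300.1 and 577 in the uterus lines, so the uterus lines lay above every ovary line of libraries 1 to 7. The mesothelial list summed to 672 CPM in F319 ROV and to 11.9 to 131 in the other 6 ovary lines, and Krt8 was below the tumor lines (0.633 and 0.663 CPM) in every ovary line except F319 ROV.

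Markers of other cells that ovary tissue could bring were read beside these. Of 10 oocyte genes 7 were in the table, their summed level was 0.253 to 2.24 CPM in the ovary lines and 0.743 to 1.07 in the other lines, and Ddx4 alone reached 1 CPM (2.03 in F364 ROV, 1.43 in F319 ROV), while Zp3 and Gdf9 stayed at 0.262 and 0.666 or less. All 10 fibroblast genes reached 1 CPM in some line and 8 in every line, led by Col1a1, Fn1 and Vim, with Col1a2 peaking at 7760 CPM in F333 uterus and a summed level of 1620 to 15921 CPM in the ovary lines of libraries 1 to 7 and 32704 to 35492 in those of 8 to 11. The 5 endothelial genes, Pecam1, Cdh5 and Tek highest, summed to 136 to 279 CPM in the former and 69.2 to 213 in the tumor lines of the same set, with Emcn peaking at 154 CPM in F339 ROV. The 5 blood cell genes, Lyz2, Csf1r and Cd68 highest, summed to 32.4 to 62.3 and 54.1 to 95.9. In libraries 8 to 11 the endothelial genes summed to 226 CPM in F339 ROV, 2.18 in F318 LOV, 5.77 in F319 uterus and 15.3 in F333 uterus, and the blood cell genes to 5.94 to 12.4. Both sums were thus lower in the uterus lines and F318 LOV, which lack Foxl2 and Nr5a1 above a few counts, than in the ovary lines of libraries 1 to 7. Lines with 0 counts of both genes did not all follow this. F339 ROV had an endothelial sum of 226 CPM, and the tumor lines had blood cell sums of 54.1 and 95.9. The part of these other cells in the levels of the genes of interest was not tested.

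**Figure D4:**
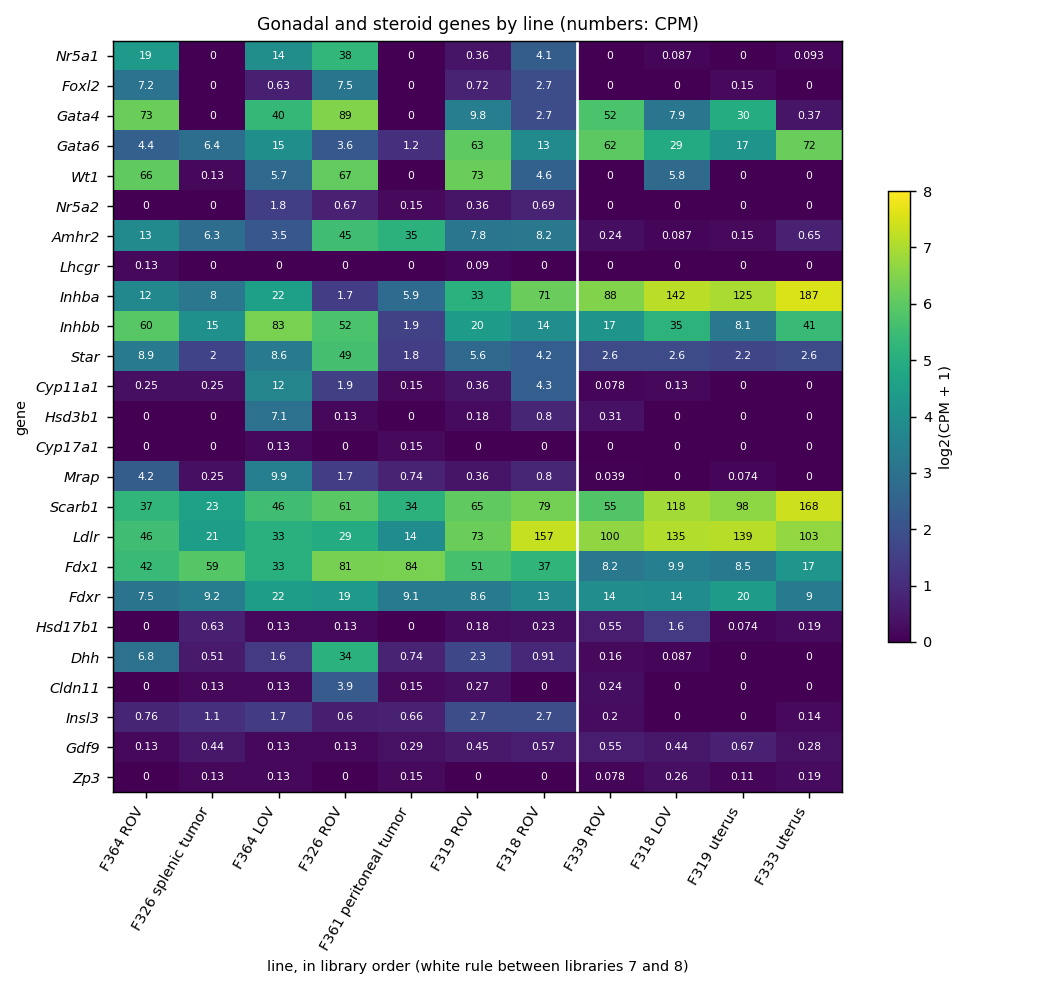
Heat map of log2(CPM + 1), with CPM printed in each cell, for 25 gonadal, steroid and oocyte genes (rows) in the 11 lines (columns, in library order, the white rule parting libraries 7 and 8). Nr5a1 and Foxl2 reach 1 CPM only in ovary lines of libraries 1 to 7, but not in F319 ROV and, for Foxl2, not in F364 LOV. Gata4 is high in some of these lines and also in F339 ROV and F319 uterus. Amhr2 is above 1 CPM in all of libraries 1 to 7, and Lhcgr and Cyp17a1 are near 0 in every line.

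The genes most alike over the 11 lines were listed for 6 genes of interest, by Pearson's r of log2(CPM + 1) among 14665 genes. This is a description, since lines share mice and library sets. Hsd3b1 and Cyp17a1 had fewer than 3 lines with at least 10 counts and were not compared. Nr5a1 was most like Slitrk4 (r = 0.965), Akr1cl (0.963) and Prss35 (0.961), and Prss35 reached 159 CPM in F326 ROV, 34.6 in F364 ROV and 14.9 in F364 LOV. Foxl2 was most like Shisa6 (0.948), Dsg2 (0.918) and Lsr (0.910), of which Dsg2, a desmosome gene, had 37.3 CPM in F364 ROV and 25.1 in F326 ROV against 1.48 or less elsewhere. Star was most like Mab21l3 (0.983), Dhh (0.946) and Slitrk4 (0.940). Cyp11a1 was most like Trim67 (0.897), Gm5828 (0.877) and Adamts15 (0.851), a metalloprotease gene with 25.3 CPM in F364 LOV and 9.02 in F318 ROV. Inha was most like Cacna1h (0.943), Slc41a1 (0.933) and Me1 (0.909), and Amh like Mab21l3 (0.854), Star (0.852) and Fam234a (0.837). With a pseudocount of 0.1 in place of 1, 11 of the 18 named genes stayed among the 3 most alike.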

How the data were processed

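RNA was measured in 11 lines by polyA-selected, strand-marking paired-end libraries. The authors aligned reads to GRCm38 (mm10) with STAR, removed PCR duplicates with SAMtools and deposited counts per gene from featureCounts (versions not given in the sources used here). Removing duplicates lowers the counts of abundant genes most.

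Levels are counts divided by the library total, in CPM, with 95% Wilson intervals. Positions come from GENCODE's GRCm38 annotation. Comparisons used edgeR 4.0.16 (R 4.3.3) on the deposited counts: TMM scaling, filterByExpr, the quasi-likelihood test and Benjamini-Hochberg adjustment over all genes tested, called under 0.05. The SE is the log2 difference divided by the square root of F. DESeq2 1.42.0 was an alternative. The test was checked on simulated data, and single values were compared by exact permutation of log2(CPM + 1). Groups follow the labels. Lines from 1 mouse are not independent, and p-values measure the spread between lines.

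The genes of interest and all lists were chosen with earlier results of these data known. Named by rule were every gene of interest, and of each other list the called genes, the 3 highest by median CPM, those peaking at 10 times their median and 5 CPM, and the 3 most alike. Other names (Gata4, Amhr2, Wt1 and Sox9 in full, Esr2, Nr5a2, Dmrt1, Gata1, Cldn11, Pax8, Ovgp1, Hsd17b3, Lhcgr, Insl3, Zp3, Gdf9, Ddx4 and the ranges of Inhba and Nr2f2) were chosen after their values were seen.

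Mouse number pairs ovary and other lines in mice F326 and F319, since these lines come from the same animal. The correlation of their deviations from the group means was 0.369 in F326 and -0.56 in F319.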

Additional observations from a re-analysis of the deposited data

Results flagged for a closer look

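Among the 7 ovary lines, 5 of the 8 listed genes had 1 line whose gap to the next, over the whole range, passed Dixon's critical value of 0.568. The value allows about 1 in 20 groups by chance for normal values, which CPM with many zeros are not: 25.4% of the 26933 genes that vary among these lines passed, and 14.4% of the 16452 at 1 CPM or more in an ovary line. The genes share lines, and a count of 5 among so few is a description. Star was set apart by F326 ROV, at 48.7 CPM with 8.88 in the next line, a gap of 0.863 of the range. Amh was set apart by the same line, at 3.94 CPM with 1.33 next, a gap of 0.693. Cyp11a1 was set apart by F364 LOV, at 11.5 CPM with 4.28 next (0.633), and so was Hsd3b1, at 7.09 CPM with 0.799 next (0.887). Cyp17a1 passed on 2 counts in F364 LOV (0.127 CPM) with 0 in the other ovary lines, which is under the floor of 3 counts. Nr5a1 (0.516), Inha (0.48) and Foxl2 (0.0419) did not pass.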

How the results depend on the processing

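The number of genes called between ovary and other lines was 0 by edgeR with each alternative scaling, filter, term, subset and line left out (lowest 0, highest 0), and 22 by DESeq2. Between ovary and uterus lines it was 0, with 2 without the filter on low counts, 1297 by DESeq2, and 0 to 1 when each line was left out, the 1 call coming without F333 uterus, which leaves 1 uterus line assumed to vary like the ovary lines. The causes of the differences between tools were not tested. Of the genes of interest, Nr5a1 in both comparisons and Cyp11a1 between ovary and uterus lines were called by DESeq2 alone. Directions turned in the ovary to uterus comparison with library set as a term (Foxl2 -3.65, Nr5a1 -0.088, Amh -1.52) and, within libraries 8 to 11, for Amh (-1.47). For Foxl2 and Nr5a1 that term leaves libraries 8 to 11 to set the direction, where neither had more than 4 counts in a line. Single lines moved the log2 differences. Between ovary and other lines, leaving out F326 ROV lowered Star from 2.53 to 1.38, Inha from 1.33 to 0.78 and Amh from 1.16 to 0.36, and leaving out F361 peritoneal tumor brought Inha to 2.19. Foxl2 ranged from 5.46 to 8.78. Nr5a1 ranged from 8.09 to 10.91 over the 7 fits that tested it, and without F364 ROV, F364 LOV, F326 ROV or F318 ROV, its main carriers, it did not pass the filter. Between ovary and uterus lines, Star went from 2.58 to 1.41 and Amh from 1.28 to 0.48 without F326 ROV, and Foxl2 went from 5.38 to 8.89 without F319 uterus and Inha from 2.74 to 4.26 without F333 uterus. The count of genes at 1 CPM or more was 7 at 0.5 CPM, at 10 counts, and with other library sizes.

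With mouse as a replicate block, edgeR called 0 genes between ovary and other lines (1102 unadjusted). Inha then differed by 3.02 ± 0.56 (adjusted p = 0.705) and Nr5a1 by 10.77 ± 3.04 (adjusted p = 0.705), so the block changed no call. Between ovary and uterus lines, where the block was added after seeing the data and mouse F319 alone holds both sites, edgeR called 0 genes (1501 unadjusted). Inha then differed by 3.01 ± 0.82 and Star by 1.64 ± 0.76 (both adjusted p = 0.47), Nr5a1 and Cyp11a1 by 5.98 ± 3.65 and 5.98 ± 4.71, and Foxl2 by 2.50 ± 3.30.

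Depth limits the low genes: 3 counts are 0.111 to 0.221 CPM, so Cyp17a1 below that level was not detectable.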
